A study of Mus musculus with 5 samples.

Results

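The 10 genes described here make up the secretory program of the goblet cell, and they were found by symbol in a table of 51425 distinct gene symbols from mouse colon tumors. They are Muc2, Fcgbp, Clca1 and Zg16 of the mucus gel, Tff3, Spink4 and Klk1, which encode small secreted peptides and a secreted enzyme, Agr2, which encodes a mucin-folding enzyme, and the transcription factor genes Atoh1 and Spdef. All 10 were present and all 10 had a TPM (the abundance of a gene's RNA per length, as a share of all RNA in the sample) of at least 1 in at least 2 samples, the filter for testing.

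Tumors came from 2 Control and 3 SIGLEC12 female mice that were 8 weeks old at the start. Control mice carried the Villin1-Cre-ERT transgene, a tamoxifen-inducible Cre recombinase driven by the villin promoter in epithelium of the small and large intestine, and SIGLEC12 mice carried in addition a conditional knock-in of human SIGLEC12 at the ROSA26 locus. Mice of both groups received tamoxifen for 5 days, the carcinogen azoxymethane at 10 mg/kg, and 4 cycles of 2.0% dextran sodium sulfate in the drinking water for 5 days with 14 days of recovery between cycles, and tumors were taken on day 87. All samples were therefore treated tumors, with no untreated colon among them, and the labels give no more than colon as tissue. The comparison asked how expression of human Siglec-XII in the epithelium was accompanied by differences in the tumor transcriptome. The study describes this member of the Siglec family of lectins as unable to bind sialic acids.

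Goblet cells are secretory cells of the colon epithelium that store and release mucus. The MUC2 mucin forms disulfide-linked polymers in the endoplasmic reticulum with help from AGR2, is decorated with O-linked sugars in the Golgi, and unfolds on release into a gel that keeps bacteria away from the epithelium. ATOH1 commits intestinal progenitors to the secretory lineages, goblet cells among them, and SPDEF acts downstream of it in goblet cell maturation. Loss of goblet cells and thin mucus are known features of colitis, and colon tumors differ widely in the mucus they make.

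Of the members whose start sites were in the RefSeq table used here, Atoh1 and Spdef held no match to the motifs searched and are not printed. The promoters of the 4 with a match are printed below, 2 mucus gel genes and 2 genes of the other roles, the sides of the contrast described later. Each is the 250 bases before the start of transcription on GRCm38.p6, read 5′ to 3′ on the strand of the gene, which was the plus strand for all 4. Capitals mark matches to the motifs searched. Muc2 and Fcgbp hold CAGCTG, an E-box of the kind bound by basic helix-loop-helix factors such as ATOH1. Klk1 holds CATCTG, which is the E-box CAGATG on the other strand. Agr2 holds CCATAAA, which is the CDX motif TTTATNG on the other strand. The windows are chr7:141690090-141690339 for Muc2, chr7:28070986-28071235 for Fcgbp, chr7:44225110-44225359 for Klk1 and chr12:35992675-35992924 for Agr2.
Muc2: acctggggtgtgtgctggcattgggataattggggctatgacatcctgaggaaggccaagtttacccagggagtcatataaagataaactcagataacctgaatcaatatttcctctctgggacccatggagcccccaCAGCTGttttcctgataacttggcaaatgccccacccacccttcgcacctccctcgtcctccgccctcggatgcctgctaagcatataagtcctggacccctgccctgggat
Fcgbp: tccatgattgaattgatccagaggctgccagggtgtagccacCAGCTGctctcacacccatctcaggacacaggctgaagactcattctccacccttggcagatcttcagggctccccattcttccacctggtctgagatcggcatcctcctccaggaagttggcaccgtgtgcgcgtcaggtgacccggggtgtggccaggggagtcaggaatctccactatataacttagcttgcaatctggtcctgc
Klk1: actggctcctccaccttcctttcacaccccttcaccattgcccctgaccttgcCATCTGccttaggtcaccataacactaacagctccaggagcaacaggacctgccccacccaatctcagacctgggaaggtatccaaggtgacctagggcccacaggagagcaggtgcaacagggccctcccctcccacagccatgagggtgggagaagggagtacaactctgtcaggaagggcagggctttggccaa
Agr2: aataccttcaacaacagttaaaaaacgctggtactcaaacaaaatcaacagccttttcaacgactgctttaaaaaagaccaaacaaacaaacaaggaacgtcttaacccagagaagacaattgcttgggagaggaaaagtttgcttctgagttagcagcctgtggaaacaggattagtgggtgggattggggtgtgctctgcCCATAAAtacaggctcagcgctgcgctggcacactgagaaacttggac

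Promoter windows were found for 6 of the 10 genes, which were these 4, Atoh1 and Spdef, and the search covered both strands from 250 bases before to 50 bases after each start. The E-box CAGCTG was in 2 of the 6 (16.1% of 27025 promoters), starting 112 bases before the start of Muc2 and 208 before that of Fcgbp. The E-box CAGATG was in 1 of the 6, Klk1, against 17.2% of all promoters, with a match 197 bases before the start and another at its first base. The CDX motif was in 1 of the 6, Agr2, at 48 bases before the start, against 11.3% of all promoters. The SPDEF core CCGGAT and the forkhead motifs TGTTTAC and TGTTTGC were in 0 of the 6, and in 5.96%, 3.55% and 5.04% of all promoters. These matches are a description of the letters in the windows.

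The 5 libraries differed in ways that bear on every value below. Protein-coding genes took 5.70% and 6.73% of all TPM in Control replicates 1 and 4 and 8.84%, 8.74% and 9.71% in SIGLEC12 replicates 2, 3 and 4, and the median log2 fold change of all 10338 tested genes was 0.38 in favor of SIGLEC12. Control replicate 1 stood apart from the rest. Its mean level over 12 columnar epithelium markers was 4.40 on the log2(TPM + 1) scale against 5.82 to 6.65 in the other samples, and its mean over 8 squamous epithelium markers was 7.26 against 5.07 to 6.34. Krt14, a keratin of squamous and not of colon epithelium, was at 10.2 in it and from 5.69 to 7.64 in the others, so all 5 samples labelled colon held squamous transcripts. Control replicate 1 also had a mean of 0.12 over 7 Paneth cell markers where the other samples had 2.01 to 2.52. Values are therefore given as deposited, after rescaling each sample to the same protein-coding total, and relative to the columnar epithelium list, and without Control replicate 1 where its removal matters. For the columnar scale, the TPM of a gene was divided by the geometric mean TPM of the 12 markers in that sample. That divisor was first centered over the 5 samples on the log2 scale, and 1 was added before the log. In bulk tumor RNA, fewer goblet cells and less of a transcript per goblet cell cannot be told apart.

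As deposited, the 10 goblet cell genes were on average higher in SIGLEC12 tumors, but no single gene passed the test with correction over all genes. The limma log2 fold change was above 0 for all 10, with a median of 0.52, beside the median of 0.38 over all tested genes. The 6 genes outside the mucus gel (Tff3, Spink4, Klk1, Agr2, Atoh1 and Spdef) were higher in every SIGLEC12 sample than in every Control sample, and the 4 mucus gel genes overlapped between the groups. As deposited, 54.1% of all tested genes were higher without overlap and 1.67% were lower without overlap, so 6 of 10 is near the background. Spink4, Agr2 and Tff3, 3 of the 10, were at least 2-fold higher with an unadjusted p up to 0.05, as were 3.97% of all tested genes, and 5 of the 10 reached that p as higher whatever the fold, as did 33.4% of all tested genes. After Benjamini-Hochberg adjustment 0 of the 10 passed, as did 0% of all genes. Without Control replicate 4, when the lone Control sample has to be assumed to vary like the others, Spink4 (2.55, limma adjusted p = 0.0414) and Agr2 (1.88, limma adjusted p = 0.0463) passed as higher, and so did 9.31% of all genes. Without Control replicate 1, 0 of the 10 passed, and the log2 fold changes of Tff3, Klk1, Atoh1 and Spdef were 0.78, 0.61, 0.51 and 0.30.

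**Figure D1:**
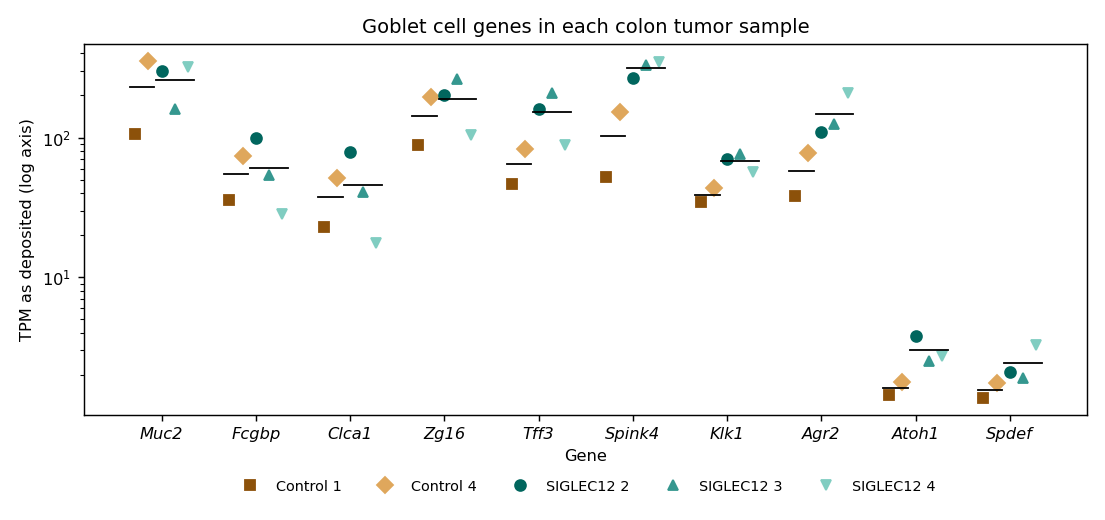
TPM as deposited (log axis) of the 10 goblet cell genes in each of 2 Control and 3 SIGLEC12 colon tumor samples, with a point for each sample and a line at the mean TPM of each group. Control replicate 1 is the lowest sample in 8 of the 10 genes, and Spink4 lies between 267 and 345 TPM in SIGLEC12 against 52.3 and 153 in Control.

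Levels within the program spanned a wide range. Muc2, Zg16 and Spink4 together supplied most of the summed TPM of the 10 genes in every sample, while Atoh1 and Spdef supplied at most 0.334% each, which is usual for transcription factors beside secreted products. Control replicate 1 was the lowest sample for 8 genes, all but Fcgbp and Clca1. For those 2 genes SIGLEC12 replicate 4 was the lowest, and the same sample was the highest for Spink4, Agr2 and Spdef.

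Spink4, which encodes a small Kazal-type peptide made by goblet cells, differed most among the members. Its TPM was 52.3 and 153 in Control replicates 1 and 4 and 267, 329.7 and 345 in SIGLEC12 replicates 2, 3 and 4. The lowest SIGLEC12 sample was above the highest Control sample, and the SIGLEC12 samples lay close together. The difference was 1.79 ± 0.45 (SE) on the log2 scale, with a 95% interval of 0.70 to 2.88, with an unadjusted limma p of 0.00652 and an adjusted p of 0.0974, and 99.7% of tested genes had a smaller fold change. The exact permutation p was 0.1, the smallest that 2 against 3 samples allow. After rescaling to the protein-coding total its TPM was 72.9 and 180.2 in Control and 240.0, 300 and 282 in SIGLEC12, and the log2 fold change was 1.24 (adjusted p = 0.456 by limma, exact permutation p = 0.1). Relative to columnar epithelium it was 0.60 (exact permutation p = 0.1). Among the members Spink4 was the only one without overlap in the same direction under the deposited values, both of these rescalings, median-ratio scaling and quantile normalization. Without Control replicate 1 the log2 fold change was 1.03 as deposited and 0.60 after protein-coding rescaling, so much of the size of the difference rested on that sample.

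Agr2, the protein disulfide isomerase of mucin assembly, stood at 37.9 and 77.6 TPM in Control replicates 1 and 4 and at 110.4, 125 and 208 in SIGLEC12 replicates 2, 3 and 4. The groups did not overlap, and SIGLEC12 replicate 4 was set above the other SIGLEC12 samples. The difference was 1.37 ± 0.42 (SE) on the log2 scale (adjusted p = 0.101 by limma, 0.1 by exact permutation). It was 0.83 after protein-coding rescaling, still without overlap, and 0.18 relative to columnar epithelium, where the groups overlapped. Without Control replicate 1 it was 0.86 as deposited.

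Tff3 encodes a trefoil peptide that is packed with MUC2 and aids epithelial repair. Its TPM was 46.3 and 83.2 in Control replicates 1 and 4 and 159, 208.5 and 88.5 in SIGLEC12 replicates 2, 3 and 4. SIGLEC12 replicate 4 was barely above Control replicate 4. The difference was 1.19 ± 0.44 (SE) on the log2 scale (adjusted p = 0.121 by limma, 0.2 by exact permutation), and it was 0.65 after protein-coding rescaling and 0.00 relative to columnar epithelium, with overlapping groups in both. Klk1, which encodes tissue kallikrein, a secreted serine protease, ran at 34.4 and 43.9 TPM in Control and 70.4, 76.7 and 56.7 in SIGLEC12. Its groups did not overlap as deposited, by 0.78 ± 0.26 (SE) on the log2 scale (adjusted p = 0.107 by limma), but they overlapped after protein-coding rescaling (0.24) and the direction turned relative to columnar epithelium (-0.40). Of the 31-base words in Klk1 transcripts, 40.5% also occur in other genes, mostly its Klk1b copies, which were at or below 0.19 on the log2(TPM + 1) scale in every sample.

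The transcription factors were low. Atoh1 stood at 1.43 and 1.80 TPM in Control replicates 1 and 4 and at 3.79, 2.53 and 2.76 in SIGLEC12 replicates 2, 3 and 4, with SIGLEC12 replicate 2 the highest and no overlap. The difference was 0.61 ± 0.19 (SE) on the log2 scale (adjusted p = 0.102 by limma), 0.24 after protein-coding rescaling and -0.23 relative to columnar epithelium. Spdef stood at 1.38 and 1.76 TPM in Control and at 2.10, 1.91 and 3.31 in SIGLEC12, where replicate 4 was the highest and the other 2 samples were just above Control replicate 4. For Spdef it was 0.40 ± 0.22 (SE) (adjusted p = 0.215 by limma), 0.04 after protein-coding rescaling and -0.43 relative to columnar epithelium. Differences at these levels are understated by the pseudocount of 1, and read depth is unknown.

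The 4 mucus gel genes did not separate the groups as deposited. Muc2, the gel-forming mucin of the colon, was at 106 and 354 TPM in Control replicates 1 and 4 and at 298, 159 and 322 in SIGLEC12 replicates 2, 3 and 4. The Control samples were the lowest and the highest of the 5, so the 2 Controls differed from each other more than the groups did. The difference was 0.35 ± 0.56 (SE) on the log2 scale, with a 95% interval of -0.998 to 1.71 (adjusted p = 0.641 by limma), and it turned to -0.20 after protein-coding rescaling, -0.84 relative to columnar epithelium and -0.51 without Control replicate 1. Relative to columnar epithelium every SIGLEC12 sample was below every Control sample, at 7.90, 7.06 and 7.48 against 8.20 and 8.45 on a log2 scale (exact permutation p = 0.2).

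Fcgbp encodes an IgG Fc-binding protein with mucin-like repeats that joins the gel. It was at 36.0 and 73.6 TPM in Control replicates 1 and 4 and at 99.1, 54.4 and 28.6 in SIGLEC12 replicates 2, 3 and 4. Clca1, a secreted metalloprotease that cleaves MUC2, was at 23.05 and 51.6 TPM in Control and at 78.4, 40.5 and 17.75 in SIGLEC12. For both genes SIGLEC12 replicate 2 was the highest of the 5 samples and SIGLEC12 replicate 4 the lowest, so the SIGLEC12 samples spanned the Control samples. Their log2 fold changes were 0.06 (SE 0.56) and 0.15 (SE 0.64), with limma adjusted p of 0.941 and 0.864, and both turned below 0 after protein-coding rescaling (-0.48 and -0.38), relative to columnar epithelium (-1.12 and -1.01), without Control replicate 1 (-0.45 and -0.41) and without SIGLEC12 replicate 2 (-0.38 and -0.35). Of the 31-base words in Fcgbp transcripts 12.3% also occur in other genes, mostly 9530053A07Rik.

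Zg16 encodes a lectin that binds Gram-positive bacteria in the mucus. Its TPM was 89.1 and 196.1 in Control replicates 1 and 4 and 201.8, 262 and 104.7 in SIGLEC12 replicates 2, 3 and 4. Control replicate 4 lay within the SIGLEC12 range. The difference was 0.42 ± 0.50 (SE) on the log2 scale (adjusted p = 0.535 by limma), and it turned to -0.13 after protein-coding rescaling, -0.78 relative to columnar epithelium and -0.15 without Control replicate 1.

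**Figure D2:**
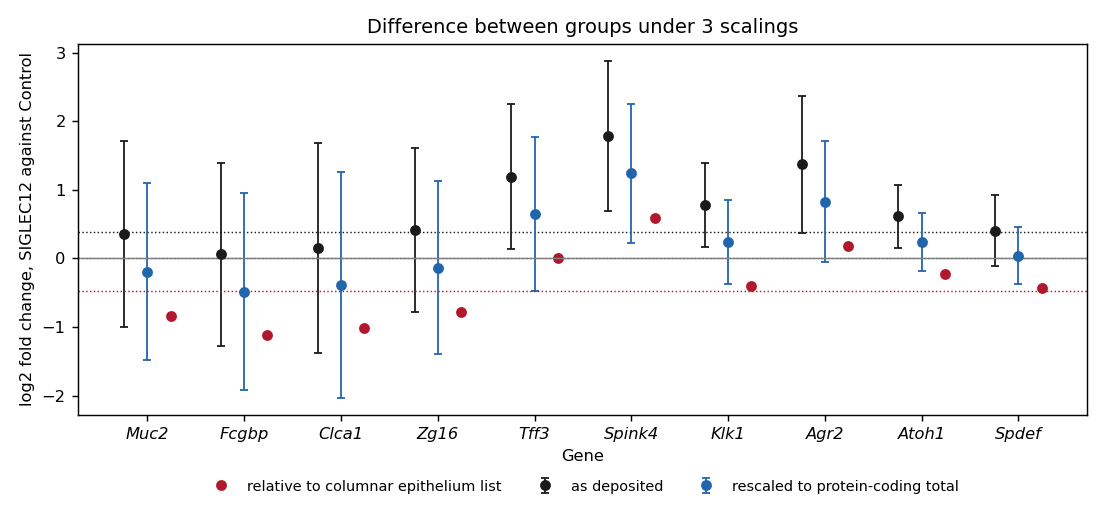
Log2 fold change of SIGLEC12 (3 samples) against Control (2 samples) for each gene, as deposited (black) and rescaled to a common protein-coding total (blue), both with 95% limma intervals, and relative to the columnar epithelium list (red, no interval), with dotted lines at the median of all 10338 tested genes on each scale (0.38, 0.01 and -0.47). The mucus gel genes Muc2, Fcgbp, Clca1 and Zg16 lie above 0 as deposited and below 0 on the other 2 scales, and Spink4 is the highest on all 3 scales.

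The direction of the program as a whole thus depended on what it was set against. After protein-coding rescaling 3 of the 10 were higher without overlap (Spink4, Agr2 and Atoh1) and 0 were lower, against 15.7% and 16.8% of all tested genes. Relative to columnar epithelium 1 was higher (Spink4) and 1 was lower (Muc2) without overlap, against 1.04% and 31.6% of all tested genes. The columnar list itself had a median log2 fold change of 1.31 as deposited. Of its 12 genes 10 were higher in SIGLEC12 without overlap as deposited, beside 54.1% of all tested genes on that scale. The part of the columnar list in the values of the goblet cell genes was not tested. The summed TPM of the 10 genes was 428 and 1036 in Control replicates 1 and 4 and 1290.0, 1260.0 and 1177 in SIGLEC12 replicates 2, 3 and 4. As a share of protein-coding TPM it was 0.751% and 1.54% in Control and 1.46%, 1.44% and 1.21% in SIGLEC12, so all 3 SIGLEC12 samples lay between the 2 Controls (exact permutation p = 0.7).

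Ratios between members within a sample do not change when all TPM of the sample are multiplied by a common factor. Under quantile normalization they can change. The ratios were taken, like the split into gel genes and others, with the values above known. The 4 mucus gel genes supplied 59.4% and 65.2% of the summed TPM of the 10 genes in Control replicates 1 and 4 and 52.5%, 41.0% and 40.2% in SIGLEC12 replicates 2, 3 and 4. The groups did not overlap, with means of 62.3% ± 4.07 (SD, n = 2) and 44.5% ± 6.91 (SD, n = 3), and the exact permutation p was 0.2. Spink4 supplied 12.2% and 14.7% in Control and 20.7%, 26.2% and 29.3% in SIGLEC12 (exact permutation p = 0.1). With Spink4 left out of the total, the gel genes supplied 67.7% and 76.4% in Control and 66.2%, 55.5% and 56.9% in SIGLEC12, a gap of little more than 1 percentage point between Control replicate 1 and SIGLEC12 replicate 2. Muc2 was the most abundant of the 10 in both Control samples and in SIGLEC12 replicate 2, and Spink4 was the most abundant in SIGLEC12 replicates 3 and 4.

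**Figure D3:**
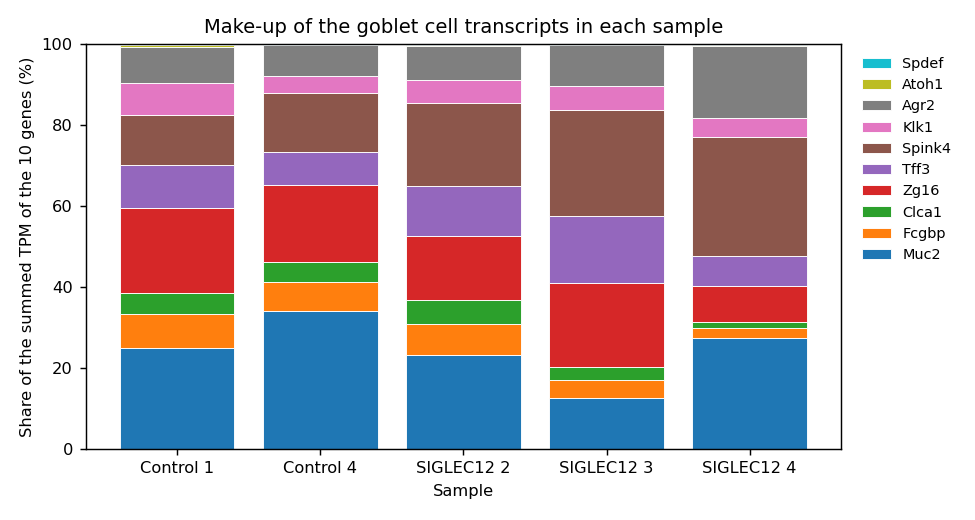
Share of the summed TPM of the 10 goblet cell genes taken by each gene (stacked bars, %) in each sample. The mucus gel genes at the base of each bar (Muc2, Fcgbp, Clca1 and Zg16) reach 59.4% and 65.2% in Control and 40.2% to 52.5% in SIGLEC12, and the Spink4 segment is widest in the SIGLEC12 samples.

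Of the 45 pairs of members, 13 had TPM ratios that did not overlap between the groups, against 32.1% of the 50747775 pairs of all tested genes, so the count over all pairs is no more than the background. The 13 pairs were 10 of the 24 that join a gel gene with another member, 0 of the 6 among gel genes and 3 of the 15 among the others. By group means, the gel gene was lower in SIGLEC12 relative to its partner in all 24 mixed pairs. These pairs are built from the same 10 genes, so they are not 24 separate observations. Their shared direction restates that the 4 gel genes had the smallest mean differences in log2 TPM. The split was made with those values known, so the direction adds no evidence for it. Some of the mean differences were small, such as 0.185 for the log2 ratio of Spdef to Zg16, where the groups overlapped (exact permutation p = 0.9). Each of the 13 held Spink4 (6 pairs), Agr2 (4 pairs) or Tff3 (3 pairs), and 0 of the 21 pairs without these 3 genes were free of overlap. The log2 ratio of Spink4 to Muc2 was -1.02 and -1.21 in Control replicates 1 and 4 and -0.16, 1.05 and 0.10 in SIGLEC12 replicates 2, 3 and 4. The log2 ratio of Spink4 to Zg16 was -0.77 and -0.36 in Control and 0.40, 0.33 and 1.72 in SIGLEC12, and that of Tff3 to Zg16 was -0.94 and -1.24 in Control and -0.34, -0.33 and -0.24 in SIGLEC12. Each of these 3 pairs had an exact permutation p of 0.1, before any correction for the 45 pairs. The same exact permutation p was found for Spink4 to Klk1, Spink4 to Spdef and Agr2 to Spdef, which hold no gel gene.

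The ratio of Clca1 to Fcgbp varied least. Their log2 ratio stayed between -0.69 and -0.34 in the 5 samples while the TPM of each gene ranged more than 3-fold, and its SD of 0.14 was the smallest of the 45 pairs. Of all pairs of tested genes 2.38% were as tight, about the share that a single pair makes of 45, so this closeness is at the background. Muc2 departed from both in SIGLEC12 replicate 4, where its log2 ratio to Fcgbp was 3.50 against 1.55 to 2.27 in the other samples. In that sample Clca1 and Fcgbp were at their lowest and Muc2 was at 322 TPM.

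The other goblet cell genes gave the setting of the program. Of a list of 32 such genes 25 were tested, 23 had a log2 fold change above 0, with a median of 0.77, and 15 were higher in SIGLEC12 without overlap and 0 lower, beside the backgrounds of 54.1% and 1.67% given above. Of the 25, 14 were higher at an unadjusted p up to 0.05 (33.4% of all tested genes), 4 of these were also 2-fold higher (3.97% of all), and 0 passed the adjusted threshold. After protein-coding rescaling 6 were higher and 3 lower without overlap, against 15.7% and 16.8% of all tested genes.

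Among other secreted products 3 of 8 were tested and 2 were higher in SIGLEC12 without overlap, beside the 54.1% of all tested genes. Retnlb, which encodes the bactericidal protein RELM-beta, was at 0.24 and 1.83 on the log2(TPM + 1) scale in Control replicates 1 and 4 and at 2.77, 1.91 and 2.79 in SIGLEC12 replicates 2, 3 and 4, a log2 fold change of 1.46 (limma adjusted p = 0.111). Guca2a, which encodes the peptide hormone guanylin, was at 2.61 and 3.91 in Control and 4.56, 4.29 and 4.32 in SIGLEC12 (1.13, limma adjusted p = 0.111). Ang4, an antimicrobial ribonuclease also made by Paneth cells, was at 0.08 and 2.33 in Control and 3.29, 2.80 and 1.31 in SIGLEC12, where the groups overlapped. For each of these 3 genes Control replicate 1 was far below Control replicate 4, and without it the log2 fold changes of Retnlb, Guca2a and Ang4 were 0.66, 0.48 and 0.13. Gastric and airway mucus genes were not tested because they were low, and Control replicate 1 alone held Muc5b (2.40) and Tff1 (1.57) above 0.16 on this scale.

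Of the genes of mucin folding and O-glycosylation, all 9 tested had a log2 fold change above 0 as deposited, and 7 were higher without overlap, beside the 54.1% of all tested genes. Qsox1, a disulfide-forming oxidase, and Ern2, an endoplasmic reticulum stress sensor of mucus-secreting cells, were on the other side of 0 after protein-coding rescaling, at -0.31 and -0.01. C1galt1c1, the chaperone of the core 1 O-glycan enzyme, was at 1.56 and 1.94 on the log2(TPM + 1) scale in Control replicates 1 and 4 and at 2.67, 2.90 and 2.87 in SIGLEC12 replicates 2, 3 and 4. Its log2 fold change was 1.07 (adjusted p = 0.0974 by limma). C1galt1, the core 1 enzyme itself, stood 0.90 higher on the log2 scale and Galnt3, which starts O-glycan chains, one of 1.10, with limma adjusted p of 0.107 and 0.124.

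Of the other regulators 7 were tested, 6 had a log2 fold change above 0 and 3 were higher without overlap, no more than the 54.1% of all tested genes. Foxa3, a forkhead factor of goblet cells, was at 0.88 and 1.86 in Control and 2.24, 2.38 and 2.31 in SIGLEC12 on the log2(TPM + 1) scale (log2 fold change 0.94, limma adjusted p = 0.101), and Creb3l4 was at 0.76 and 1.07 in Control and between 1.66 and 1.68 in SIGLEC12 (0.75, limma adjusted p = 0.0974). Klf4, a factor of goblet and squamous cell differentiation, had a log2 fold change of -0.30 with overlapping groups. Of 6 genes of granule release and ion transport, 3 were higher without overlap, again no more than that share, among them Vamp8, a membrane fusion protein of granules (0.77, limma adjusted p = 0.0974), and Rab27a was at -0.10.

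**Figure D4:**
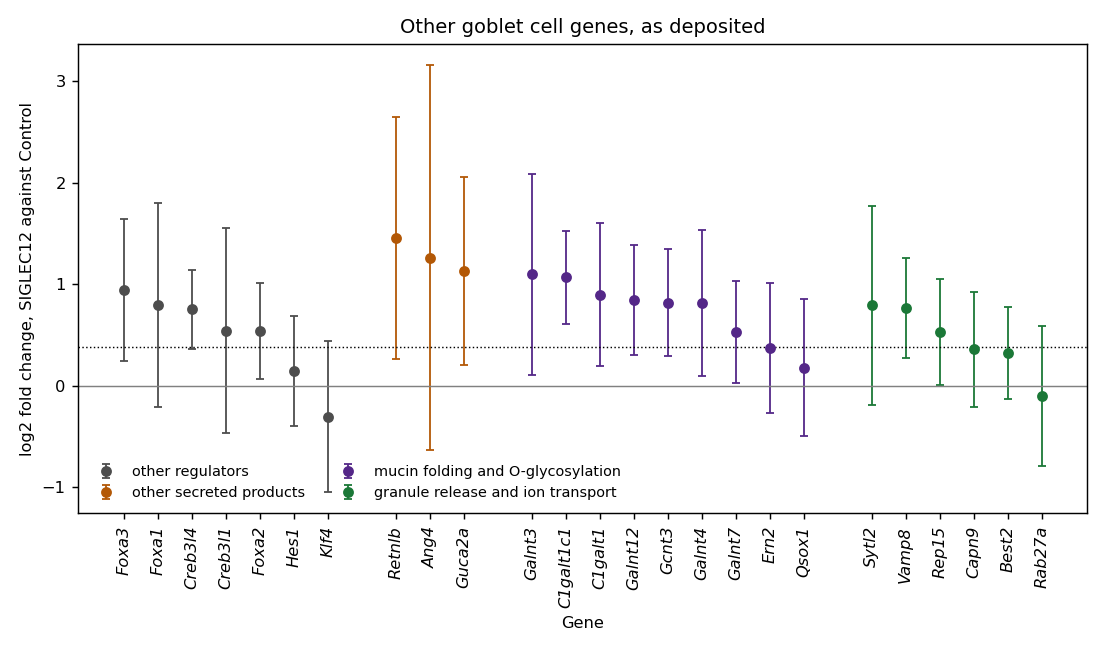
Log2 fold change as deposited, SIGLEC12 (3 samples) against Control (2 samples), with 95% limma intervals, for the 25 tested genes of the list of other goblet cell genes, colored by role, with a dotted line at the median of all tested genes (0.38). All 9 folding and O-glycosylation genes lie above 0, and Klf4 and Rab27a lie below 0.

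Lists for other cell types placed the goblet cell genes beside their neighbors. The mean over the 10 goblet cell genes was 4.73 and 5.64 on the log2(TPM + 1) scale in Control replicates 1 and 4 and 6.11, 5.92 and 5.67 in SIGLEC12 replicates 2, 3 and 4, so all SIGLEC12 samples were above both Controls, replicate 4 by a small margin. The mean over 8 absorptive colonocyte genes was 3.08 and 4.19 in Control and 3.92, 3.24 and 2.83 in SIGLEC12, with a median log2 fold change of -0.28. In SIGLEC12 replicate 4, where Clca1 and Fcgbp were lowest, this absorptive mean was also the lowest of the 5 and the columnar mean the highest. All marker lists of columnar, absorptive, squamous and Paneth cells had 0 genes at zero in all samples. The part of these lists in the values of the goblet cell genes was not tested.

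**Figure D5:**
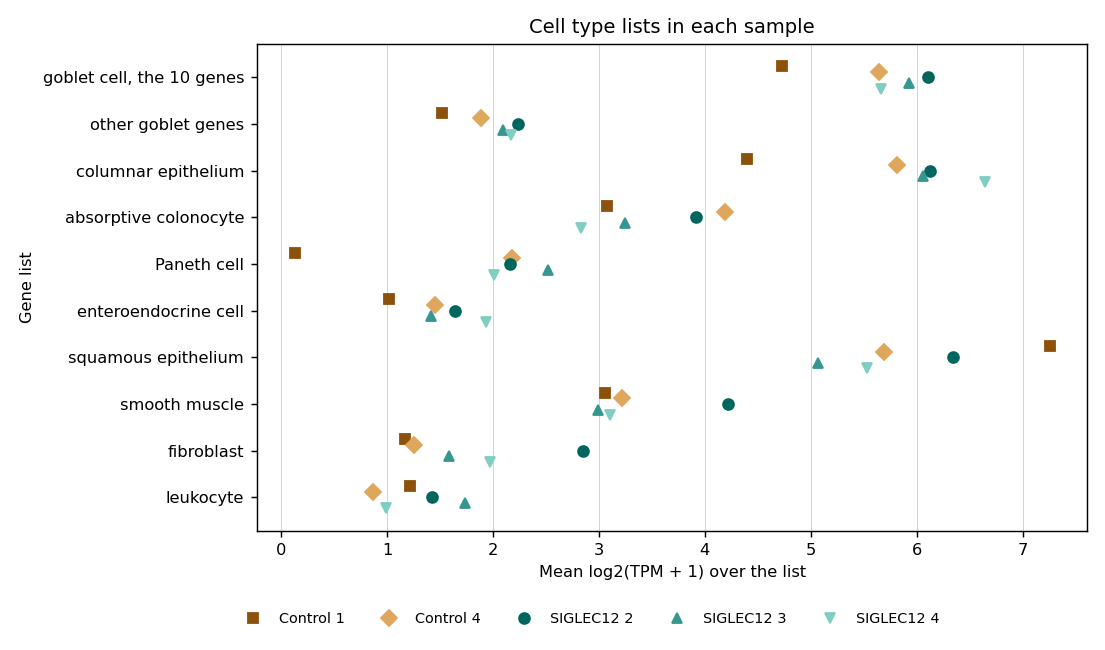
Mean log2(TPM + 1) over the genes of each cell type list (horizontal axis) in each sample. Control replicate 1 is the lowest sample for goblet, columnar and Paneth cell lists and the highest for the squamous list, at 7.26.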

How the data were processed

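RNA-Seq libraries from colon tumors of 2 Control and 3 SIGLEC12 mice were mapped by the authors with kallisto 0.45.0 on GRCm38, per the submitters' processing notes. The study's methods name another kallisto version, a human reference and technical replicate libraries, and how these entered the values is not given in the sources used here. The labels name a stranded total RNA kit and the methods an mRNA kit, which bears on the protein-coding share of TPM. The authors deposited log2(TPM + 1) values for 52143 entries. Each column summed to 999999 to 1000001 after the log was undone. TPM keeps no read depth, so no counting interval is given. Muc2 had 2 entries with identical values, and 1 was used. The series text speaks of more mice per group than were analysed here. The limma p-values set each difference against the spread between these samples, pooled in part over all tested genes.

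The test was limma 3.58.1 under R 4.3.3 (lmFit, eBayes with trend) on log2(TPM + 1), for the 10338 genes that reached a TPM of 1 in 2 or more samples, with Benjamini-Hochberg adjustment and a threshold of adjusted p 0.05 and 2-fold. The human SIGLEC12 transgene was not analysed here, so the group labels were not checked against its RNA. Single genes also had a two-sided exact permutation test over the 10 splits. The fit was tested on simulated data. Protein-coding genes and coordinates were taken from GENCODE M21, and promoters from RefSeq (GRCm38.p6). The rule for named genes took all 10 members, and allowed any tested gene of the list of other goblet cell genes. Members and lists were chosen with earlier results of these data known. The form of the columnar epithelium scaling, the ratios between members, the roles and the other genes followed across settings were settled after values had been seen. On the columnar scale some limma p-values looked too small, so the report gives permutation p-values there, and limma's enter only the counts across settings.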

Additional observations from a re-analysis of the deposited data

How the results depend on the processing

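With 2 and 3 samples and no read depth, small differences between the groups cannot be resolved. Of the 10 members and the other goblet cell genes, 0 passed the adjusted threshold under any setting that kept at least 2 samples in each group. Without Control replicate 4, which leaves 1 Control sample, the log2 fold changes of Spink4 and Agr2 were 2.55 and 1.88. That fit is given above beside its share of all tested genes. The number of members 2-fold higher at an unadjusted p up to 0.05 was 1 under median-ratio, protein-coding and quantile scaling and 0 relative to columnar epithelium. With 1 SIGLEC12 sample left out it was 2 to 3, beside 388 to 494 of all tested genes. Of all 10338 tested genes, 46, 38, 45 and 35 were 2-fold higher at that p under median-ratio, protein-coding, quantile and columnar scaling. The number of members higher without overlap was 3, 3, 2 and 1 under these 4 scalings, beside 1643, 1618, 1884 and 108 of all tested genes. Relative to columnar epithelium 1 member was lower without overlap, beside 3269 of all tested genes, and the median log2 fold change of the members was -0.42. With 1 SIGLEC12 sample left out 0 members were lower without overlap, beside 222 to 379 of all tested genes. Without Control replicate 1 the log2 fold change of Muc2 was -0.51.

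Of the other goblet cell genes, the number higher by 2-fold at the same p was 9 with a pseudocount of 0.1, 1 without a filter, 0 under median-ratio and protein-coding scaling, 1 under quantile scaling and 0 relative to columnar epithelium, where 2 were lower by limma, and ranged from 0 to 11 over samples left out. Over all tested genes, the number 2-fold higher at that p was 1087 of 10338 with a pseudocount of 0.1 and 280 of 52143 without a filter. Relative to columnar epithelium 877 of 10338 were lower by the same limma rule. The number of other goblet cell genes higher without overlap was 8 with a minimum TPM of 5, which left 15 tested, beside 2279 of all 3476 genes under that filter. Of 25 tested it was 7, 6, 7 and 0 under median-ratio, protein-coding, quantile and columnar scaling, beside the counts over all genes given above. The number lower without overlap was 2 without a filter, beside 1568 of all 52143 genes. It was 3 under each of the first 3 scalings, beside 1816, 1740 and 1447 of all 10338 tested genes. Relative to columnar epithelium it was 4, beside 3269 of all tested genes, and the median of the other goblet cell genes was -0.16. With 1 SIGLEC12 sample left out the number lower without overlap was 0 to 1, beside 222 to 379 of all tested genes.

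Single genes were followed for the 10 members and 14 of the other goblet cell genes. Muc2, Fcgbp, Clca1 and Zg16 turned below 0 under median-ratio scaling (-0.21, -0.49, -0.39 and -0.14), protein-coding scaling (-0.20, -0.48, -0.38 and -0.13), quantile scaling (-0.00086, -0.50, -0.49 and -0.17) and relative to columnar epithelium (-0.84, -1.12, -1.01 and -0.78). On the columnar scale Klk1 (-0.40), Atoh1 (-0.23), Spdef (-0.43), Foxa1 (-0.14), C1galt1 (-0.13), Rep15 (-0.38), Sytl2 (-0.14) and Vamp8 (-0.29) turned too, and 18 of all 25 tested other goblet cell genes were below 0, against 2 as deposited. Rab27a was 0.062 with sample weights. Over samples left out, 4 members and 4 of the 25 other genes crossed 0, and the ranges of those followed were -0.51 to 1.22 for Muc2, -0.45 to 0.56 for Fcgbp, -0.41 to 0.72 for Clca1, -0.15 to 0.98 for Zg16 and -0.31 to 0.14 for Rab27a, and Spink4 ranged from 1.03 to 2.55.

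A setting added after the data were seen joined protein-coding scaling with the removal of Control replicate 1. It gave -0.94 for Muc2, -0.87 for Fcgbp, -0.83 for Clca1, -0.58 for Zg16, -0.32 for Foxa1, -0.20 for Ang4 and -0.22 for Sytl2. Of the members 3 were then higher and 1 was lower without overlap, and of the other goblet cell genes 7 and 6, with a median of 0.059. Among all 10338 tested genes, 2402 were higher and 3694 lower without overlap with the lone Control sample. The cause of these changes was not tested. No paired analysis was made, because the labels do not say that samples of the groups were matched. The replicate number 4 occurs in both groups, and what it stands for is not given.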
